A study of Mus musculus with 15 samples.

Results

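The HoxA, HoxB, HoxC and HoxD clusters of the mouse were examined for 5-hydroxymethylcytosine (5hmC) and unmodified cytosine at CG dinucleotides. Their members were 38 Hox genes, 10 in HoxA, 10 in HoxB, 9 in HoxC and 9 in HoxD, of 21755 protein-coding genes of GENCODE mouse release 21 on mm10. Every CG from 2 kb before a gene to 2 kb after it was assigned to that member, which gave 10124 distinct CGs of the 21353092 in the deposited table. The rule for the choice of genes used no measured value, although it was set with earlier results of these data known. Each cluster was also read in full from its first to its last member, with 50 kb on both sides as flanks. The 4 spans hold 11784 CGs, and 24 pairs of members have overlapping windows and so share reads.

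The DNA came from E14TG2a, a mouse embryonic stem cell line that was grown on gelatin with LIF and serum. In hmTOP-seq the enzyme BGT transfers an azide-carrying glucose to 5hmC, an oligonucleotide is clicked to the azide, and a DNA polymerase primes from it, so that reads start close to the labelled CG. Labelled libraries were made from 500, 50 and 5 ng of DNA with 2 technical replicates each, each input had 2 control libraries made without BGT, and uTOP-seq, which tags unmodified CGs, was made from 300 ng with 3 replicates. All 15 libraries come from cells of the same line with no treatment or mutation between groups, so that p-values measure only the spread between technical libraries, and RNA was not measured in them.

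Hox genes encode homeodomain transcription factors that set positional identity along the body axis. Within a cluster their order on the chromosome follows the order of their expression from anterior to posterior, a property called collinearity, and genes with the same number in different clusters are paralogues of common descent. In embryonic stem cells the clusters are known as broad Polycomb domains with CG-rich sequence and little transcription.

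The labelled libraries held 14884939 to 32502791 reads, the uTOP-seq libraries 20120568 to 28412885 and the controls 3409 to 10072. Because depths differ, coverage is given as relative coverage, the reads per CG of a region divided by the reads per CG over all CGs of the same library, so that the genome-wide mean is 1. Duplicates were removed without molecular identifiers, and intervals and floors cover counting error only. In the control libraries the 4 clusters held 3 and 6 reads for the 500-ng input, 7 and 9 for 50 ng, and 1 and 0 for 5 ng. The control with 0 of 4790 reads allows a share of up to 0.0626%. The clusters held 0 to 0.764 reads per 1000 CGs in the controls, against 1594 to 3677 in labelled libraries. The reads of the 50-ng controls were 0.205% and 0.261% of their libraries and came from 2 CGs in each, so that the share of reads in the clusters was no lower there than in labelled libraries.

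The CG with the highest mean count at 500 ng in each cluster is given here with its sequence context, because the 10% of CGs with most reads held 49.3% to 54.9% of the 500-ng reads of a cluster, against 65.6% over the genome. Sequences are the plus strand of GRCm38.p6, the RefSeq assembly of the mm10 build, with 30 bases on both sides and the counted CG in capitals. They span chr6:52220134-52220195, chr11:96302017-96302078, chr15:102950446-102950507 and chr2:74728499-74728560.
HoxA site: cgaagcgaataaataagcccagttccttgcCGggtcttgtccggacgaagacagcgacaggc
HoxB site: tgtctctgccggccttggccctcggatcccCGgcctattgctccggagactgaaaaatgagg
HoxC site: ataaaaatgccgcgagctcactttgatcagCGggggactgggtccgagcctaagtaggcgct
HoxD site: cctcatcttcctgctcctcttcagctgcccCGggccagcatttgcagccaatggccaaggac
The HoxA site, at chr6:52220164, lies in an intron of Hoxa7, 2659 bases upstream of the start of its principal transcript. It had 73 and 37 reads in the 500-ng pair, 48 and 35 in the 50-ng pair, 21 and 36 in the 5-ng pair, and 12, 4 and 7 in uTOP-seq. The HoxB site, at chr11:96302047, lies 1465 bases upstream of the start of Hoxb5, within the antisense gene Hoxb5os. Its counts were 67 and 61 in the 500-ng pair, 17 and 43 in the 50-ng pair, 1 and 20 in the 5-ng pair, and 7, 4 and 8 in uTOP-seq. The HoxC site, at chr15:102950476, lies in no annotated gene, 3951 bases upstream of the start of Hoxc11. It had 80 and 52 reads in the 500-ng pair, 54 and 20 in the 50-ng pair, 3 and 21 in the 5-ng pair, and 15, 3 and 6 in uTOP-seq. The HoxD site, at chr2:74728529, lies in a coding exon of Hoxd4 that is also within the span of Hoxd3. Its counts were 116 and 72 in the 500-ng pair, 64 and 26 in the 50-ng pair, 0 and 6 in the 5-ng pair, and 15, 17 and 7 in uTOP-seq. These means at 500 ng were 36.5, 42.4, 43.8 and 62.3 times the mean over all CGs of the genome, and no control library had a read at any of the 4 sites. All 4 sites also gave reads in each uTOP-seq library, while their counts in the 5-ng replicates ranged from 0 to 36.

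At the level of whole clusters, 5hmC and unmodified CGs both gave more reads per CG than in the genome at large. Repeats, taken as soft-masked sequence, held 5.43% to 10.5% of the CGs of a cluster, against 5460128 of the 21353092 CGs of the genome. Genome-wide values outside repeats were not computed, so the share of this excess that goes with repeats was not tested. HoxA spans chr6:52162417-52260880 with 2947 CGs, and its relative coverage was 2.27 ± 0.0423 (SD, n = 2) at 500 ng and 2.66 ± 0.0429 (n = 3) in uTOP-seq. HoxB spans chr11:96194316-96368256 with 3637 CGs, and reached 2.65 ± 0.00316 and 2.60 ± 0.0367. HoxC spans chr15:102921103-103036852 with 2484 CGs, and reached 2.52 ± 0.0259 and 2.91 ± 0.0717. HoxD spans chr2:74668310-74765142 with 2716 CGs, and reached 2.15 ± 0.00618 and 2.38 ± 0.0107. All 6 labelled libraries lay well above the genome mean in every cluster, from 1.76 for HoxD in a 5-ng library to 2.75 for HoxB in the other. In the order HoxA to HoxD, the 50-ng means were 2.19, 2.63, 2.57 and 2.15, and the 5-ng means 2.11, 2.71, 2.56 and 1.87.

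The 11784 CGs make up 0.0552% of CGs and held between 0.126% and 0.133% of the reads of each labelled library. A read in both 500-ng replicates (5hmCG) was found at 42.9% of CGs in HoxA, 48.8% in HoxB, 46.7% in HoxC and 38.7% in HoxD, against 22.6% genome-wide. A read in all uTOP-seq replicates (uCG) was found at 41.8%, 42.2%, 47.6% and 38.7%, against 14.1%. Both marks were read at 21.8% to 27.0% of cluster CGs, against 6.76% of all CGs. The mean count at a 5hmCG was 7.42 to 7.85 reads, against 5.69. The CGs of the clusters were therefore read more often and, where read, more deeply. Even so, 22.5% of the CGs of HoxB and 36.0% of those of HoxD had no read in any labelled library.

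Coverage along each cluster was uneven. In 1-kb bins with at least 5 CGs, of which 448 lay inside the clusters, relative coverage at 500 ng ran from 0.0279 to 13.7, whereas uTOP-seq ran from 0.198 to 6.19. The highest bin, with values of 13.6 and 13.8 in the 500-ng replicates, held 12 CGs within Hoxa6 and was also the highest in uTOP-seq. The lowest bins held 130 CGs in Hoxd11 and 117 CGs in Hoxd8, with 0.0279 and 0.0284. In uTOP-seq these bins had 1.05 and 0.561. Bins under 0.5 at 500 ng numbered 48 and held 43.9 CGs on average, and bins above 4 numbered 124 and held 21.3. Bins of 8.63 to 10.7 stood between Hoxc12 and Hoxc11, and a bin of 9.80 within Hoxd4. The profile was shared most closely at 500 ng. Across the 448 bins Spearman's rho was 0.949 between the 500-ng replicates, 0.832 between the 50-ng replicates and 0.402 between the 5-ng replicates. Between the means of 500 and 50 ng it was 0.932. Bins are not independent replicates.

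**Figure D1:**
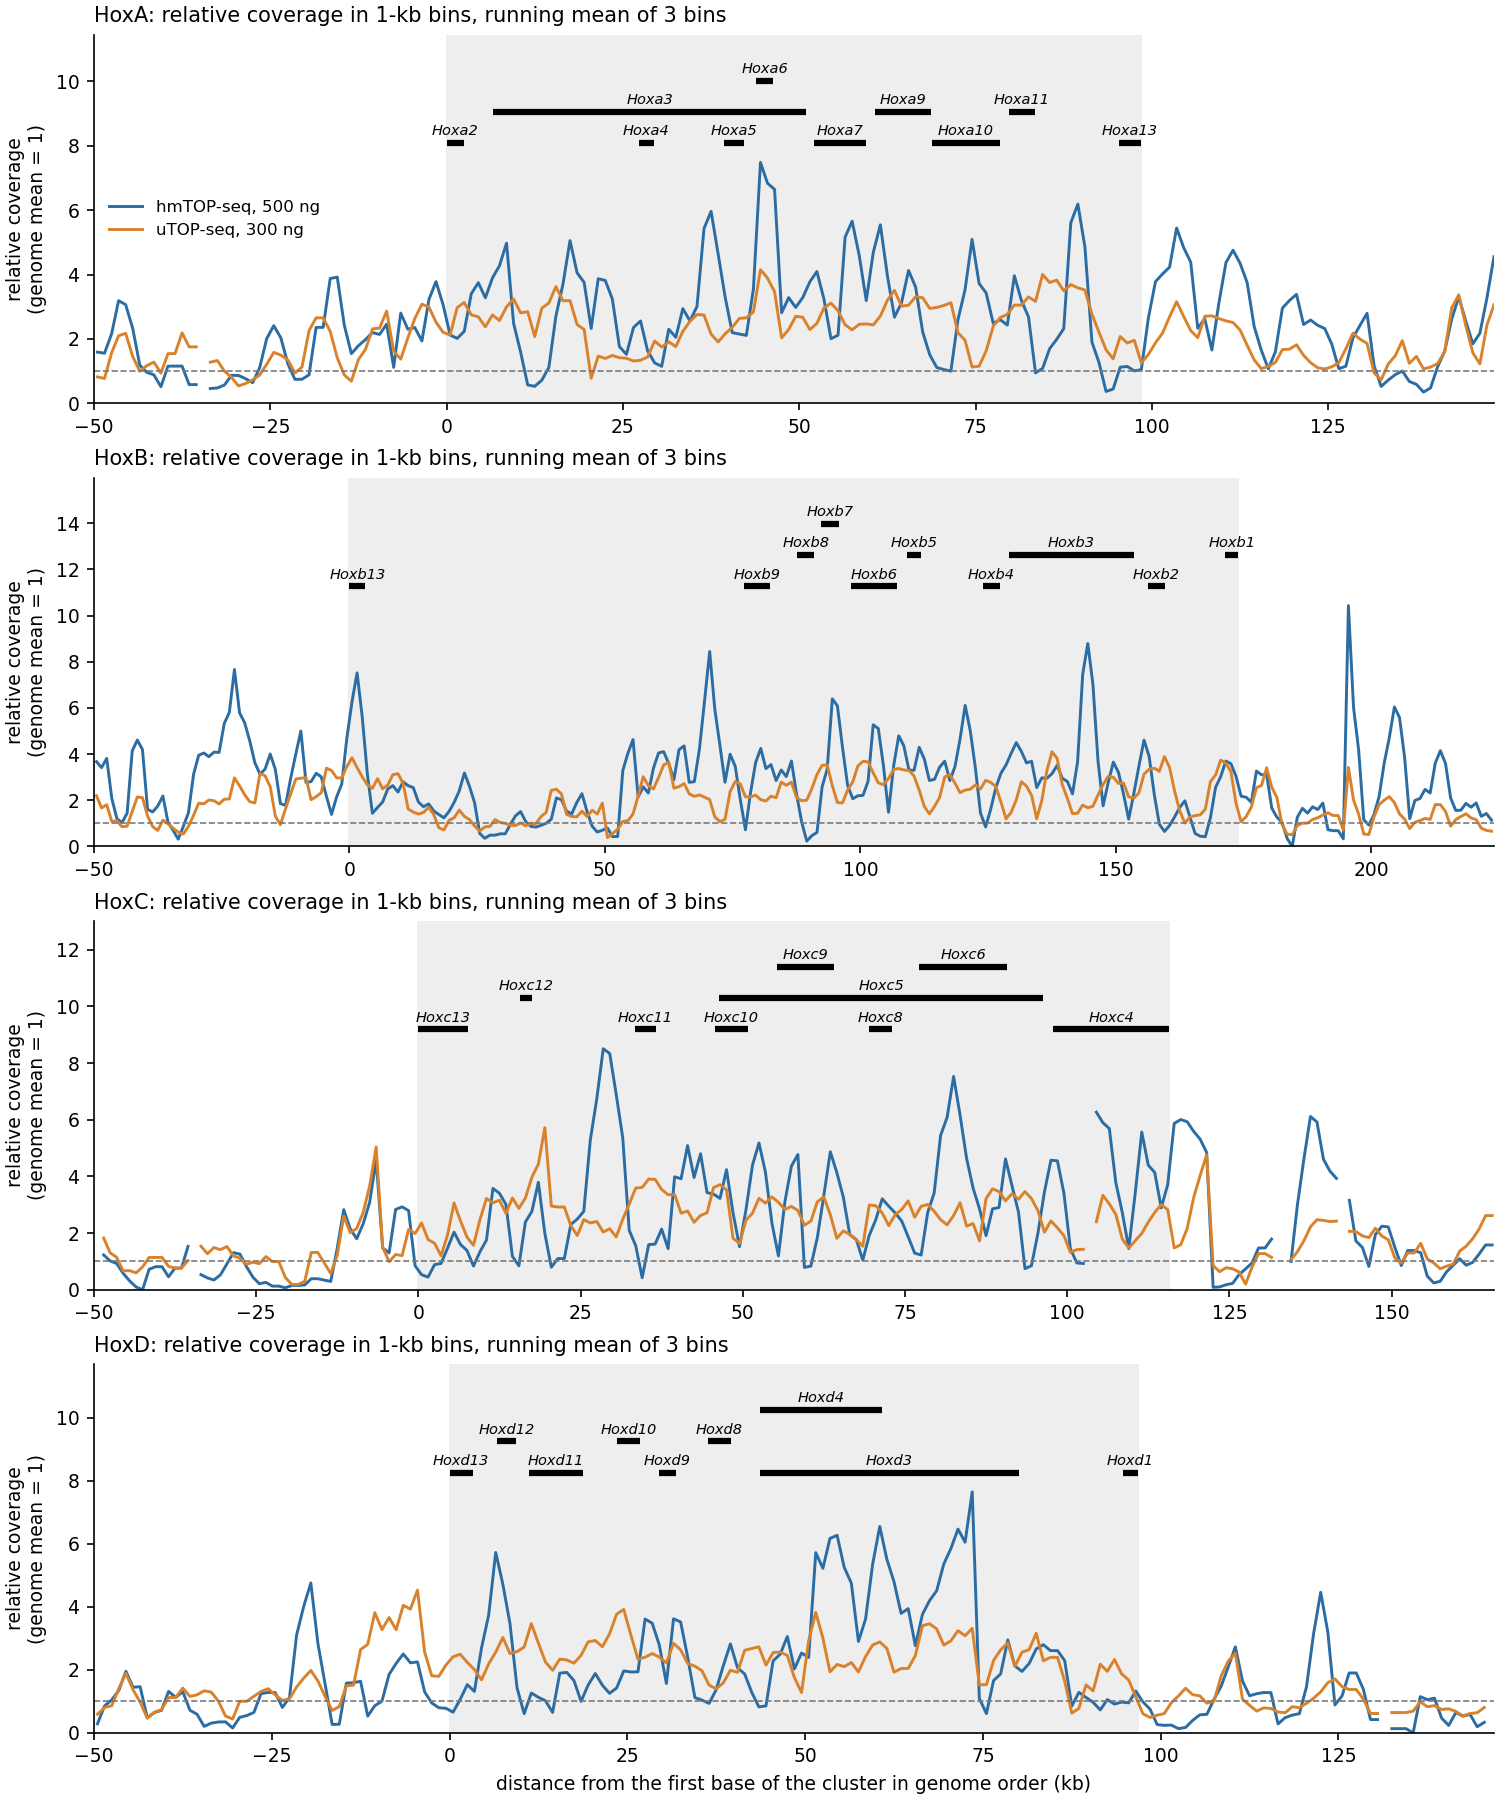
Relative coverage (genome-wide mean 1) along HoxA, HoxB, HoxC and HoxD with 50-kb flanks, against distance in kb from the first member, as a running mean of 3 bins of 1 kb. Lines show the 500-ng hmTOP-seq and uTOP-seq means, black bars mark the members and grey areas the clusters. Peaks and troughs of 5hmC alternate within each cluster, between 0.0279 and 13.7 in single bins at 500 ng, and uTOP-seq stays within 0.198 to 6.19.

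Whether the signal ended at the cluster borders was asked by dividing the reads per CG inside by those in the 50-kb flanks of the same library. At 500 ng HoxD had a relative coverage of 2.15 inside and 1.19 in its flanks, HoxB 2.65 and 3.18, HoxA 2.27 and 2.45, and HoxC 2.52 and 2.23. The log2 ratio for HoxD was 0.82 ± 0.18 (SD, 6 labelled libraries) and for HoxB -0.27 ± 0.04, each with the same sign in 6 of 6 libraries, p = 0.0312 and adjusted p = 0.0625 by a two-sided exact sign-flip permutation test over 4 clusters. The smallest p that 6 libraries allow is 0.0312, and neither passed the 0.05 threshold after adjustment. HoxA had -0.12 ± 0.09, with 5 of 6 libraries below 0 and adjusted p = 0.0833, and HoxC 0.13 ± 0.13, with 5 of 6 above 0 and adjusted p = 0.0938, both by the same exact test.

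In uTOP-seq all 4 clusters stood above their flanks in 3 of 3 libraries. The log2 ratio was 0.42 ± 0.03 for HoxA, 0.39 ± 0.04 for HoxB, 0.57 ± 0.05 for HoxC and 0.50 ± 0.02 for HoxD, each with exact permutation p = 0.25, the smallest that 3 libraries allow. With 20-kb flanks these ratios were smaller, at 0.22 for HoxA, 0.07 for HoxB, 0.34 for HoxC and 0.21 for HoxD, and with 100-kb flanks they were 0.52, 0.49, 0.72 and 0.65. The uTOP-seq ratio was thus positive in all clusters at each flank width. The 5hmC ratio with 50-kb flanks ranged from negative in HoxB to positive in HoxD, and only that of HoxD was positive at each width. The flanks themselves differed from each other. At 500 ng the left and right flanks had 1.97 and 2.85 at HoxA, 3.55 and 2.68 at HoxB, 1.58 and 2.77 at HoxC, and 1.24 and 1.10 at HoxD. The 5hmC ratios of HoxA, HoxB and HoxC changed sign with the width of the flanks or with CG density. With CGs that have fewer than 6 CGs within 90 bp, the ratio was 0.54 for HoxA, 0.04 for HoxB, 1.08 for HoxC and 1.26 for HoxD. With 100-kb flanks it was 0.08 for HoxA, 0.01 for HoxB, 0.37 for HoxC and 1.16 for HoxD. With 20-kb flanks it was -0.36 for HoxA, 0.02 for HoxB, -0.09 for HoxC and 0.82 for HoxD.

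Among themselves the clusters ranked HoxB, HoxC, HoxA and HoxD in 5hmC per CG, and each of the 6 pairs differed in the same direction in 6 of 6 labelled libraries. The log2 difference was -0.28 ± 0.07 (SD) for HoxA against HoxB, -0.22 ± 0.06 for HoxA against HoxC, and 0.09 ± 0.09 for HoxA against HoxD. It was 0.06 ± 0.03 for HoxB against HoxC, 0.38 ± 0.13 for HoxB against HoxD and 0.31 ± 0.12 for HoxC against HoxD. All 6 had adjusted p = 0.0312 by the exact sign-flip permutation test, the smallest it allows here. The chromosomes that carry the clusters differed as well, with relative coverage at 500 ng of 0.902 and 0.906 on chromosome 6 and 1.50 and 1.49 on chromosome 11. Divided by the mean of the chromosome, 4 of the 6 pairs turned. HoxA against HoxB was then 0.41 (adjusted p = 0.0469, exact), HoxA against HoxC 0.05 (adjusted p = 0.281, exact), HoxB against HoxC -0.36 (adjusted p = 0.0469, exact) and HoxB against HoxD -0.10 (adjusted p = 0.15, exact). With CGs that have fewer than 6 CGs within 90 bp, HoxA and HoxB differed by 0.02 and HoxB against HoxC turned to -0.26. No pair passed the 0.05 threshold there, with adjusted p from 0.0938 to 0.75 (exact). The mean number of CGs within 90 bp was 8.59 in HoxB, 9.41 in HoxC, 11.8 in HoxA and 12.1 in HoxD. It thus rose in the order in which 5hmC per CG fell. Whether CG density accounts for the ranking was not tested.

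Gene by gene, 29 of 38 members lay above the genome mean at 500 ng, with a median of 2.36, against 49.7% of all protein-coding genes and a median of 0.992. Values ran from 0.623 for Hoxd13 to 4.97 for Hoxb13. In uTOP-seq all 38 lay above 1, from 1.21 for Hoxd8 to 3.57 for Hoxc12, with a median of 2.73, against 66.6% of genes and a median of 1.33. The 5hmC values therefore spread wider between members than the uTOP-seq values. Of the 38 members, 27 were above the upper quartile of all genes in both assays, as were 12.8% of genes. The replicate spread was small beside these differences, with a median SD of 3.10% of the mean for the 500-ng pair, 4.66% for the 50-ng pair, 17.9% for the 5-ng pair and 3.11% in uTOP-seq.

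In HoxA, Hoxa6, which patterns the thoracic skeleton, was the highest member. Its relative coverage was 3.54 and 3.57 in the 500-ng pair, 3.44 and 3.97 in the 50-ng pair, 4.54 and 3.56 in the 5-ng pair, and 3.0, 2.64 and 2.58 in uTOP-seq. Hoxa13, which is needed for the distal limb and the genital tubercle, was the lowest, with 0.700 and 0.828 in the 500-ng pair, 0.767 and 0.909 in the 50-ng pair, 0.694 and 0.651 in the 5-ng pair, and 1.47, 1.47 and 1.46 in uTOP-seq. The 6 labelled values of Hoxa13 lay below all those of Hoxa6. Hoxa2, the first member on the chromosome and a regulator of the second branchial arch, had 2.75 and 2.94 in the 500-ng pair, 2.73 and 2.45 in the 50-ng pair, 4.26 and 4.04 in the 5-ng pair, and 3.0, 2.89 and 3.01 in uTOP-seq. Its 5-ng values stood above its other labelled values. Hoxa4 was the other member under 1 at 500 ng, with a mean of 0.987, and the remaining members lay between 1.78 and 2.94.

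In HoxB, Hoxb13, a regulator of the prostate and the tail that lies 74.0 kb from Hoxb9, had the highest 5hmC of all members. Its relative coverage was 5.02 and 4.92 in the 500-ng pair, 4.42 and 5.54 in the 50-ng pair, 5.29 and 5.80 in the 5-ng pair, and 3.32, 3.41 and 3.47 in uTOP-seq. The lowest was Hoxb8, a gene of the trunk and of blood progenitors, with 0.850 and 0.889 in the 500-ng pair, 0.936 and 0.914 in the 50-ng pair, 1.31 and 0.835 in the 5-ng pair, and 2.68, 2.63 and 2.54 in uTOP-seq. Hoxb8 was the one HoxB member under 1 at 500 ng. Hoxb1, at the other end of the cluster and a marker of the fourth rhombomere, had 3.52 and 3.51 in the 500-ng pair, 3.64 and 3.24 in the 50-ng pair, 4.48 and 2.94 in the 5-ng pair, and 3.58, 3.18 and 3.53 in uTOP-seq. Both ends of HoxB were thus high in 5hmC and in unmodified CGs. The stretch between Hoxb13 and Hoxb9 had 2.78 at 500 ng and 2.24 in uTOP-seq, and HoxB from Hoxb9 to Hoxb1 had 2.43 and 2.74.

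In HoxC, Hoxc10, which acts in lumbar motor neurons and the hindlimb, had the highest mean at 500 ng. Its relative coverage was 3.57 and 3.85 in the 500-ng pair, 3.55 and 3.80 in the 50-ng pair, 2.68 and 2.94 in the 5-ng pair, and 3.43, 3.31 and 3.25 in uTOP-seq. Hoxc13, a regulator of hair and nail keratins, had the lowest mean at 500 ng, with 0.877 and 0.885 in the 500-ng pair, 0.805 and 1.0 in the 50-ng pair, 1.71 and 1.59 in the 5-ng pair, and 1.93, 2.24 and 1.99 in uTOP-seq. Its neighbour in rank, Hoxc11, had a mean of 0.899 at 500 ng, within the spread of both, and 3.50 in uTOP-seq. Hoxc4, the last member on the chromosome, had 3.55 and 3.82 in the 500-ng pair, 4.18 and 3.99 in the 50-ng pair, 3.73 and 4.72 in the 5-ng pair, and 2.48, 2.59 and 2.63 in uTOP-seq. Hoxc10 and Hoxc4 had overlapping values at 500 ng and could not be ranked there, and in the 50-ng and 5-ng libraries Hoxc4 was the higher.

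HoxD showed the widest range of the clusters, 6.29-fold from its lowest to its highest member at 500 ng, against 4.21-fold to 5.72-fold in the others. The highest was Hoxd12, a gene of the digits, with 4.02 and 3.82 in the 500-ng pair, 3.58 and 3.82 in the 50-ng pair, 5.19 and 3.35 in the 5-ng pair, and 2.49, 2.77 and 2.99 in uTOP-seq. Its neighbour Hoxd13, which is needed for digit formation and which opens the cluster on the chromosome, was the lowest of all 38 members. It had 0.570 and 0.677 in the 500-ng pair, 0.663 and 0.575 in the 50-ng pair, 0.0897 and 0.530 in the 5-ng pair, and 1.96, 2.25 and 2.37 in uTOP-seq. The highest and the lowest member of HoxD are thus next to each other. Hoxd1, at the other end, had 0.773 and 0.856 in the 500-ng pair, 0.874 and 0.813 in the 50-ng pair, 0.728 and 1.45 in the 5-ng pair, and 1.88, 1.98 and 1.59 in uTOP-seq. Hoxd8 and Hoxd11 also lay under 1 at 500 ng, with means of 0.779 and 0.802, not separable from Hoxd1 by their replicate spread.

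**Figure D2:**
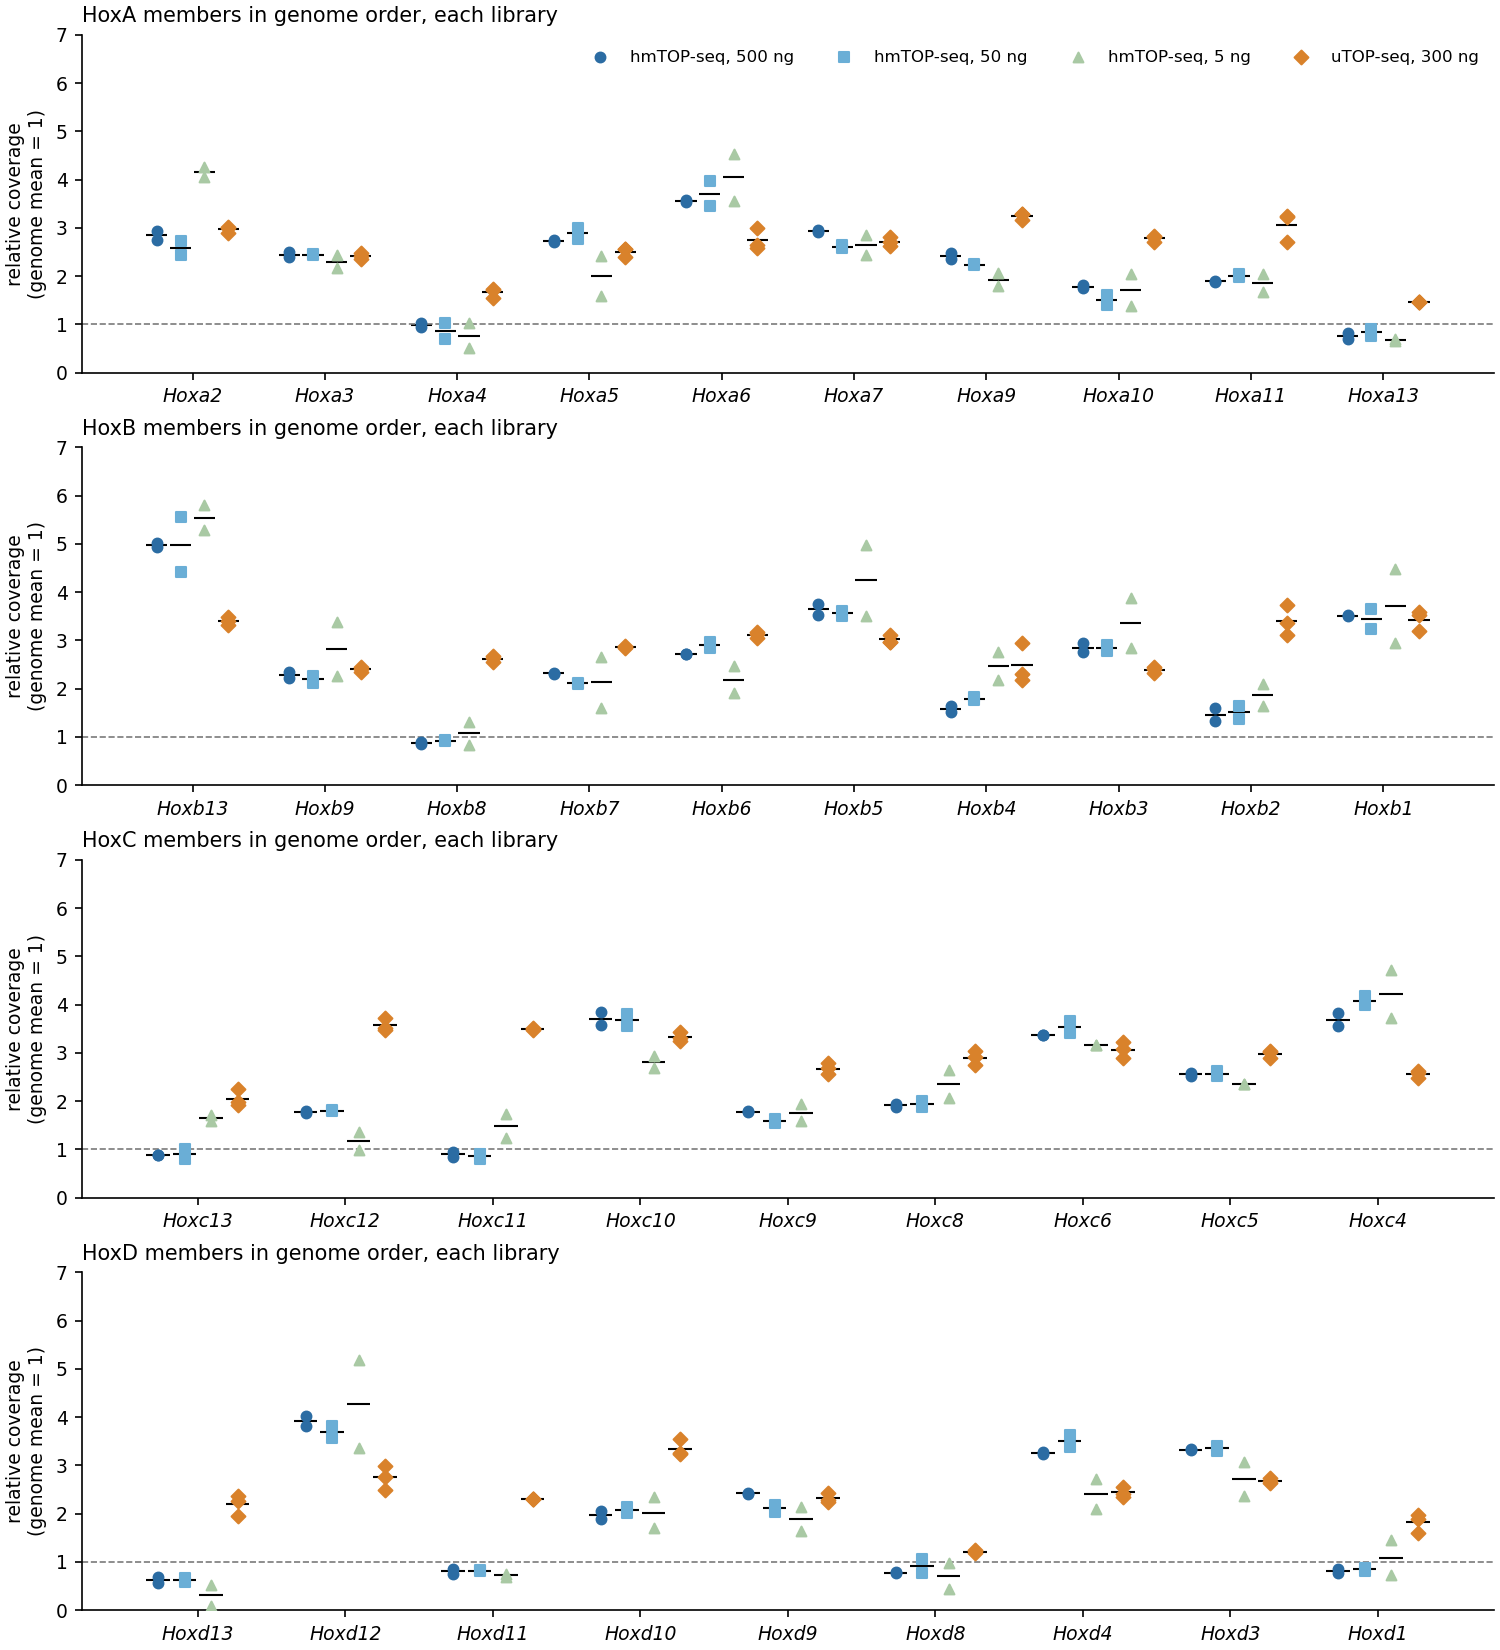
Relative coverage (genome-wide mean 1) of each of the 38 members, in genome order within its cluster, with 1 point per library for hmTOP-seq at 500, 50 and 5 ng and for uTOP-seq and short lines for the means. All uTOP-seq means lie above 1, between 1.21 and 3.57, while the 500-ng means run from 0.623 for Hoxd13 to 4.97 for Hoxb13.

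The order of members depended on whether the whole window or the coding span was read. On the coding spans, Hoxa6 with 6.59, Hoxb13 with 9.14, Hoxc10 with 3.23 and Hoxd12 with 6.15 were again the highest of their clusters at 500 ng, and Hoxa13 with 0.596, Hoxb8 with 0.264 and Hoxd13 with 0.335 again the lowest. In HoxC the lowest coding spans were those of Hoxc5, with 0.297, and Hoxc11, with 0.344, and Hoxc13 had 0.718. The window of Hoxc5 had 2.55, and Hoxd8, under 1 in its window, had 5.23 over the 14 CGs of its coding span. That span, chr2:74706094-74706809, had a mean of 4 CGs within 90 bp, against 20.2 in the window. Each coding span was taken from a single annotated transcript and need not hold all coding exons of the gene.

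Along the order of paralogue numbers, Spearman's rho with 500-ng relative coverage was -0.48 in HoxA (n = 10 members), 0.03 in HoxB (n = 10), -0.72 in HoxC (n = 9) and -0.23 in HoxD (n = 9). With uTOP-seq it was 0.13, -0.18, 0.25 and 0.18. Members of a cluster share libraries and, in part, reads, since the window of Hoxc5, for example, covers several neighbours, so that these values are descriptions. The coding spans do not overlap between members, and that of Hoxd8 holds only 14 CGs. On them rho at 500 ng was -0.35 in HoxA, 0.08 in HoxB, -0.22 in HoxC and -0.20 in HoxD. With the CG density of the windows, rho at 500 ng was -0.71 in HoxA, -0.85 in HoxB, -0.82 in HoxC and -0.78 in HoxD. Each was larger in size than the rho with order on the windows, and the values were closest in HoxC. Order and density were not tested jointly. The mean number of CGs within 90 bp had a median of 10.6 over members and 5.10 over all genes, and its rho with 500-ng relative coverage was -0.81 over the 38 members. With uTOP-seq it was -0.62. Over all 21755 genes the same values were 0.40 and 0.70, of the opposite sign but over another range of density. Members ran from 6.21 to 20.2 CGs within 90 bp, and the quartiles of all genes were 3.46 and 7.27. Over the members' densities 500-ng coverage in all gene windows also fell, from 2.39 at 6 to 9 CGs to 0.0616 at 20 or more. Their uTOP-seq coverage was 1.65 at 6 to 9 CGs, 2.49 at 15 to 19 and 1.25 at 20 or more.

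Among genes at least as CG-dense as the median member, the 19 members had a median 500-ng relative coverage of 1.58, and the 1717 other genes 0.909. In uTOP-seq these medians were 2.42 and 2.13. Split by the number of CGs within 90 bp, the CGs of the member windows exceeded those of all gene windows in every class and in 6 of 6 labelled libraries. With 1 to 2 CGs relative coverage at 500 ng was 2.61 in members and 0.701 in all gene windows, a fold of 3.72. With 3 to 5 CGs it was 3.17 and 1.47, and with 6 to 9 CGs 3.33 and 2.39. With 10 or more CGs within that distance, 5hmC coverage was 1.34 in members and 0.737 in all gene windows. Coverage of members thus rose up to 6 to 9 CGs. Above that it fell, to 2.34 at 10 to 14 CGs, 1.06 at 15 to 19 and 0.134 at 20 or more, where all gene windows had 0.0616. In uTOP-seq the fold fell from 2.28 at 1 to 2 CGs to 0.963 at 20 or more. Hox CGs in the densest sequence thus had more 5hmC reads than all gene windows in the same class, and their uTOP-seq reads were close to those of all gene windows.

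**Figure D3:**
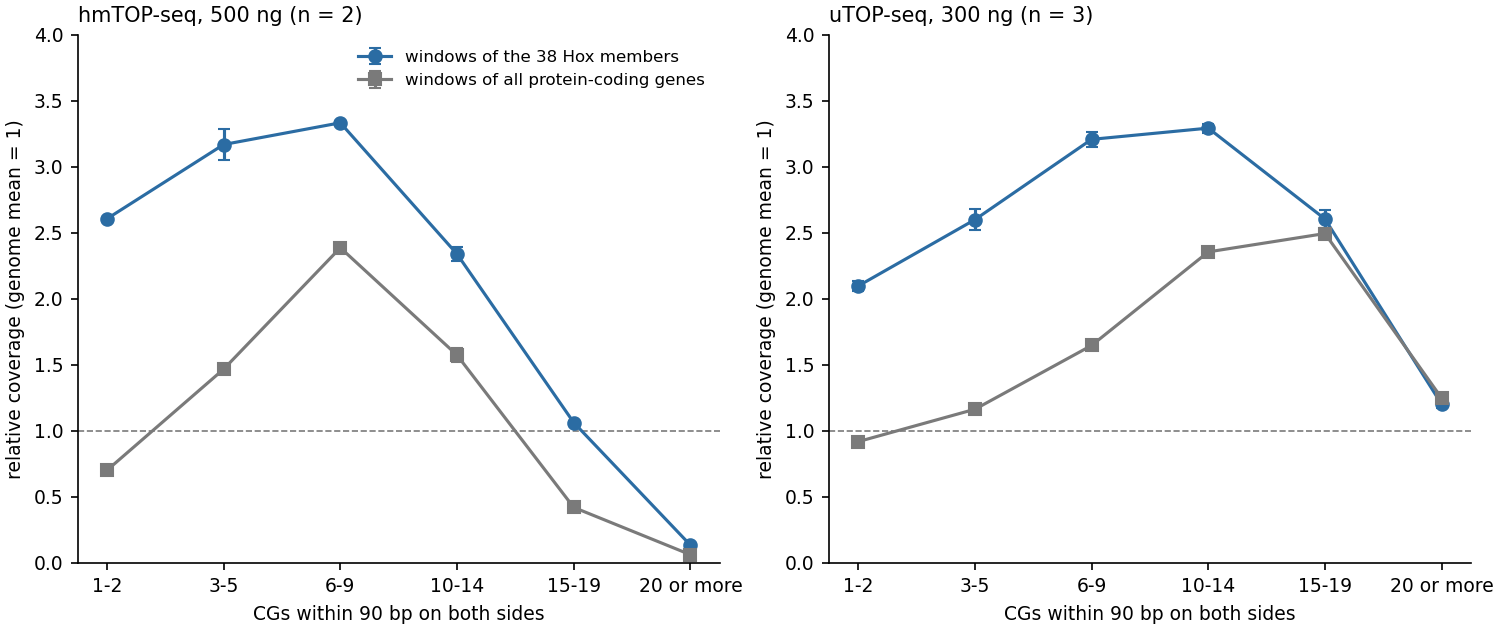
Relative coverage (genome-wide mean 1) by the number of CGs within 90 bp, for CGs in member windows and in all gene windows, with 500-ng hmTOP-seq and uTOP-seq in separate panels. Points are means over 2 and 3 libraries, and bars are SDs. At 500 ng the member windows lie above all gene windows in every class, from 2.61 against 0.701 at 1 to 2 CGs to 0.134 against 0.0616 at 20 or more.

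By gene element, members had less 5hmC than other genes in coding exons and more in every other element. Coding exons of members had a 500-ng relative coverage of 1.62, against 2.22 over all genes. Introns had 2.76 against 1.13, untranslated exons 1.92 against 1.05, the 2 kb upstream 2.36 against 0.992 and the 2 kb downstream 2.35 against 1.47. The coding sequence of members is CG-dense, with 17.5 CGs within 90 bp on average against 8.76 over all genes. Coding CGs with fewer than 10 CGs within 90 bp had 4.58 in members and 2.42 over all genes, and those with 10 or more had 1.07 and 1.74. In CG-dense upstream sequence the order was the other way round, with 1.43 in members and 0.236 over all genes. Density was not matched within these classes. Dense coding CGs had on average 19.4 CGs within 90 bp in members and 17.5 over all genes. The other coding CGs had 7.04 and 5.06, and dense upstream CGs 14.6 and 18.5. uTOP-seq coverage of members varied little between elements, from 2.40 in untranslated exons to 2.83 downstream.

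Around the start of the principal transcript, members showed a trough of 5hmC, as other genes did, but at a higher level. In the 250 bp before the start relative coverage at 500 ng was 0.878 ± 0.013 (SD, n = 2) for members and 0.412 ± 0.007 for all genes, and in the 250 bp after it 0.949 ± 0.011 and 0.418 ± 0.008. Between 1250 and 1000 bp before the start it was 4.07 and 1.30. The uTOP-seq profile of members stayed between 2.22 and 3.23 over the 3 kb on both sides. Over the same distances it ran from 1.46 to 2.58 for all genes.

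**Figure D4:**
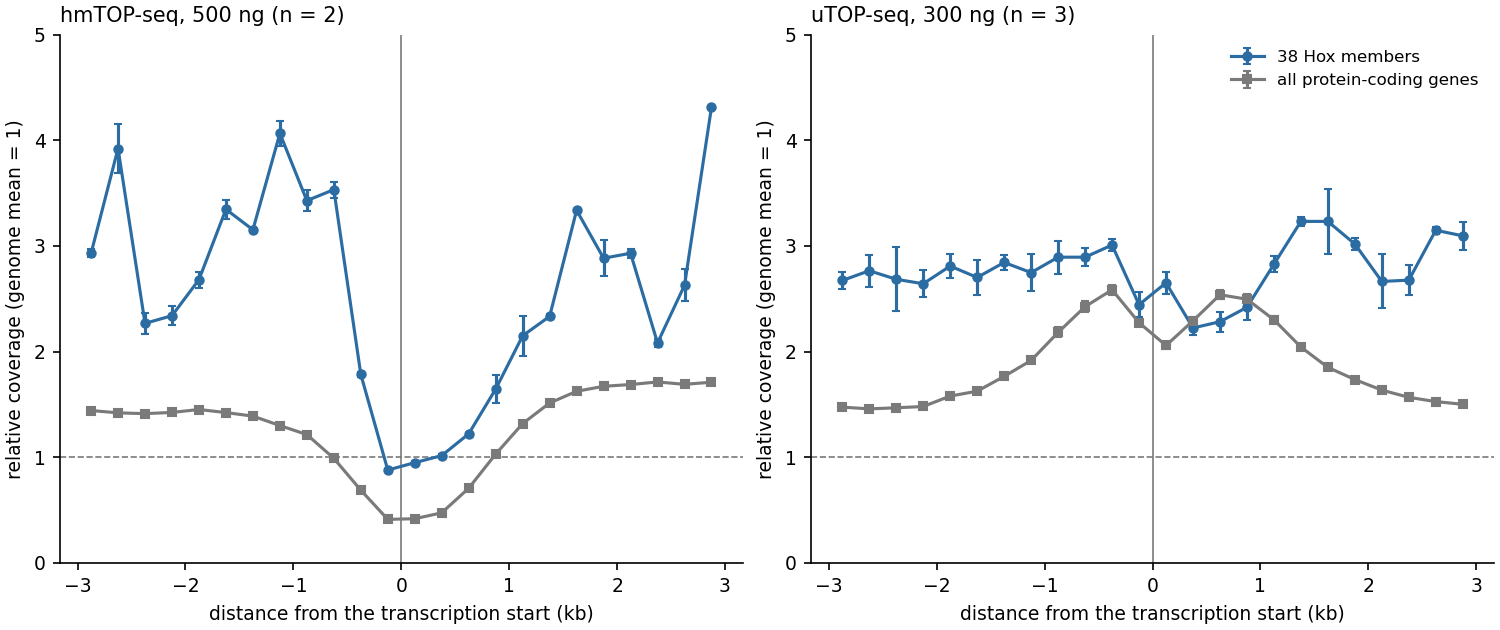
Relative coverage (genome-wide mean 1) in 250-bp bins from 3 kb before to 3 kb after the start of the principal transcript, for the 38 members and for all protein-coding genes, with 500-ng hmTOP-seq and uTOP-seq in separate panels, as means with SDs. The 5hmC of members falls to 0.878 just before the start and reaches 4.07 in the bin from -1250 to -1000 bp, and all genes fall to 0.412.

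Promoter windows, 250 bases before to 50 after a RefSeq start on GRCm38.p6, were listed for 22 members with 24 entries. None of the 17 entries with at least 10 CGs lies in HoxC, where the listed entry, of Hoxc4, has 9 CGs. Among these 17 entries, 500-ng counts ran from 0 to 223 reads over both replicates, with a median of 58, and 5 entries had no CG read in both replicates. The median relative coverage of the 17 was 0.687 at 500 ng and 2.49 in uTOP-seq, and over all 14272 entries with at least 10 CGs 0.0306 and 2.47. Of those 14272 entries, 15.1% reached the 500-ng median of the 17. The 2 extremes are given, 5′ to 3′ on the minus strand, with capitals for CGs that had a read in both 500-ng replicates. They lie at chr6:52260831-52261130 for Hoxa13 and chr6:52213018-52213317 for Hoxa3.
Hoxa13 promoter: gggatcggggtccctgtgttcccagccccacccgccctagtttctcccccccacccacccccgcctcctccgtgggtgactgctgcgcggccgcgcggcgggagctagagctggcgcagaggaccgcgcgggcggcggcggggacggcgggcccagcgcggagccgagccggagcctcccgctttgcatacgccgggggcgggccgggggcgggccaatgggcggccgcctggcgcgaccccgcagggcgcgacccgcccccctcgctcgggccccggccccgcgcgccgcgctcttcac
Hoxa3 promoter: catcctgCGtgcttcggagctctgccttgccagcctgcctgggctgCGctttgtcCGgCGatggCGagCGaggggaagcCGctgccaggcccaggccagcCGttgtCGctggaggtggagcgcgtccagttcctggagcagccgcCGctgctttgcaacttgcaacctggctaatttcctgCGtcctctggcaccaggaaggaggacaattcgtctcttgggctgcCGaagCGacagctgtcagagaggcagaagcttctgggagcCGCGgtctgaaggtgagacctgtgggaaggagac
The Hoxa13 window holds 45 CGs and had 0 reads in both 500-ng replicates, and 19, 10 and 25 reads in uTOP-seq, a relative coverage of 0.371. The Hoxa3 window holds 20 CGs, of which 15 were read in both replicates, with 104 and 119 reads at 500 ng and 82, 54 and 41 in uTOP-seq, or 3.70 and 2.59 in relative coverage. The window of Hoxd13 had 1 read at 500 ng over its 37 CGs, and that of Hoxd11 with 25 CGs had 0.

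To ask whether a smaller input changed the 5hmC reads of a gene, the reads of 19195 genes at 50 and 500 ng were tested with edgeR's quasi-likelihood method. None of the 38 members was called, with adjusted p from 0.376 to 0.999 and log2 fold changes from -0.23 for Hoxa10 to 0.24 for Hoxd8. Of all genes tested, 0% were called higher and 0% lower. At an unadjusted p under 0.05 there were 2304 genes and 3 members, and DESeq2 called 38 genes and 0 members. Hoxa10 had 1234 and 1160 reads in the 500-ng pair against 677 and 744 in the 50-ng pair, a log2 fold change of -0.23 ± 0.09 (SE, adjusted p = 0.376, edgeR). Hoxc4 had 1594 and 1685 reads against 1329 and 1215, or 0.16 ± 0.07 (adjusted p = 0.410, edgeR). Among the smallest p were also Hoxd4 with 0.11, Hoxb6 with 0.11, Hoxb4 with 0.19 and Hoxd8 with 0.24 on one side, and Hoxa7 with -0.16, Hoxd9 with -0.19, Hoxc9 with -0.16 and Hoxa9 with -0.10 on the other. Leaving out a 50-ng replicate left 1 library there, so that its spread was taken from the 500-ng pair. Without the first, Hoxa4 had -0.48 and Hoxd8 0.44, and without the second Hoxa10 had -0.33 and Hoxc4 0.19.

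The 5-ng libraries scattered more, and no member was called against 500 ng over 18109 genes tested by edgeR, of which 0% were called higher and 0% lower. At an unadjusted p under 0.05 there were 2169 genes and 4 members. DESeq2 called 1114 of the 18109 genes, 633 higher and 481 lower. Among them were 3 of the 38 members, Hoxa2, Hoxb4 and Hoxc13, all higher. Hoxc13 had 335 and 332 reads in the 500-ng pair against 300 and 285 in the 5-ng pair, a log2 fold change of 0.95 ± 0.20 (SE, adjusted p = 0.392, edgeR). Hoxa2 had 708 and 743 reads and then 502 and 489, or 0.59 ± 0.14 (adjusted p = 0.392, edgeR). Hoxb4 had 534 and 481 reads and then 409 and 333, or 0.69 ± 0.20 (adjusted p = 0.392, edgeR). These were the members whose 5-ng reads stood most above the 500-ng reads relative to their error, followed by Hoxc11 with 0.77 and Hoxb2 with 0.40. On the lower side stood Hoxc10 with -0.36, Hoxd4 with -0.40, Hoxc12 with -0.55, Hoxa9 with -0.28 and Hoxd3 with -0.25, none of them called. Hoxd13 had the lowest value, -0.96 ± 0.81. The SE of members ran from 0.06 to 0.81 here and from 0.04 to 0.18 at 50 ng, so that the missing calls do not show that members did not differ. Leaving out either 5-ng replicate left 1 library at that input, so that its spread was taken from the 500-ng pair. The median log2 fold change of members was -0.06 without the first and -0.02 without the second. Over all genes it was -0.002 in both cases.

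The 5hmC and the unmodified-CG reads of a gene were compared as shares of their libraries, with 3 uTOP-seq and 2 hmTOP-seq libraries at 500 ng. The log2 difference of uTOP-seq against 500-ng reads ran from -0.55 to 1.96 over members, and 11 members were under 0.25 in size. Whether members form separate groups was not tested. By edgeR with library totals, 21 of 38 members had a higher share in uTOP-seq and 10 a lower one, and 7 were not called. Over all 19574 genes 54.7% were called higher and 27.8% lower, so that the members' counts lie near this background, and the median log2 difference was 0.29 for all genes and 0.27 for members. TMM scaling, which sets the median of all genes near 0, gave 8173 genes higher and 7924 lower in place of 10707 and 5437, and 18 members higher and 17 lower. Both settings called 18 members higher and 10 lower, and the calls of Hoxb6, Hoxb7 and Hoxc5 were lost with TMM and DESeq2, where the values of Hoxb6 and Hoxc5 turned negative.

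Hoxc11 had the smallest p among members with a higher share in uTOP-seq. It had 262 and 291 reads at 500 ng and 956, 768 and 672 in uTOP-seq, a log2 difference of 1.96 ± 0.09 (SE, adjusted p = 2.39e-30, edgeR). Hoxd13 had 222 and 259 reads against 668, 623 and 572, or 1.81 ± 0.10 (adjusted p = 1.32e-25, edgeR). Hoxb8 had 418 and 429 reads against 1151, 917 and 774, or 1.59 ± 0.08 (adjusted p = 1.48e-28, edgeR). In these genes every uTOP-seq count exceeded every 500-ng count although the uTOP-seq libraries were smaller. Hoxd11, which with its HoxA paralogue shapes the forearm, followed with 1.52, and Hoxb2, a hindbrain gene, with 1.22.

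Hoxb13 had the largest difference towards 5hmC, with 1147 and 1104 reads at 500 ng and 662, 553 and 491 in uTOP-seq, a log2 difference of -0.55 ± 0.07 (adjusted p = 3.56e-10, edgeR). Hoxc4 had 1594 and 1685 reads against 975, 826 and 730, or -0.52 ± 0.06 (adjusted p = 2.82e-12, edgeR). Hoxd12 had 1059 and 987 reads against 574, 517 and 487, or -0.52 ± 0.08 (adjusted p = 1.42e-08, edgeR). Hoxd4 had -0.42 and Hoxd3, which overlaps it, -0.31. In HoxD the neighbours Hoxd13 and Hoxd12 thus lay on opposite sides.

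Each cluster held members called higher and members called lower with either scaling. With library totals, where 54.7% of all genes were higher and 27.8% lower, 5 members of HoxA had a higher and 1 a lower share in uTOP-seq, with 5 and 3 in HoxB, 6 and 3 in HoxC and 5 and 3 in HoxD. With TMM 8173 of 19574 genes were higher and 7924 lower. The counts of members were then 5 and 5 in HoxA, 3 and 5 in HoxB, 5 and 3 in HoxC and 5 and 4 in HoxD. Of the 12 members with paralogue numbers from 10 to 13, 9 were higher and 3 lower with either scaling. Of the 26 with numbers from 1 to 9, 12 were higher and 7 lower with library totals, and 9 higher and 14 lower with TMM. The log2 difference was higher in members with more CGs within 90 bp, with a Spearman's rho of 0.65 over 38 members that share libraries.

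**Figure D5:**
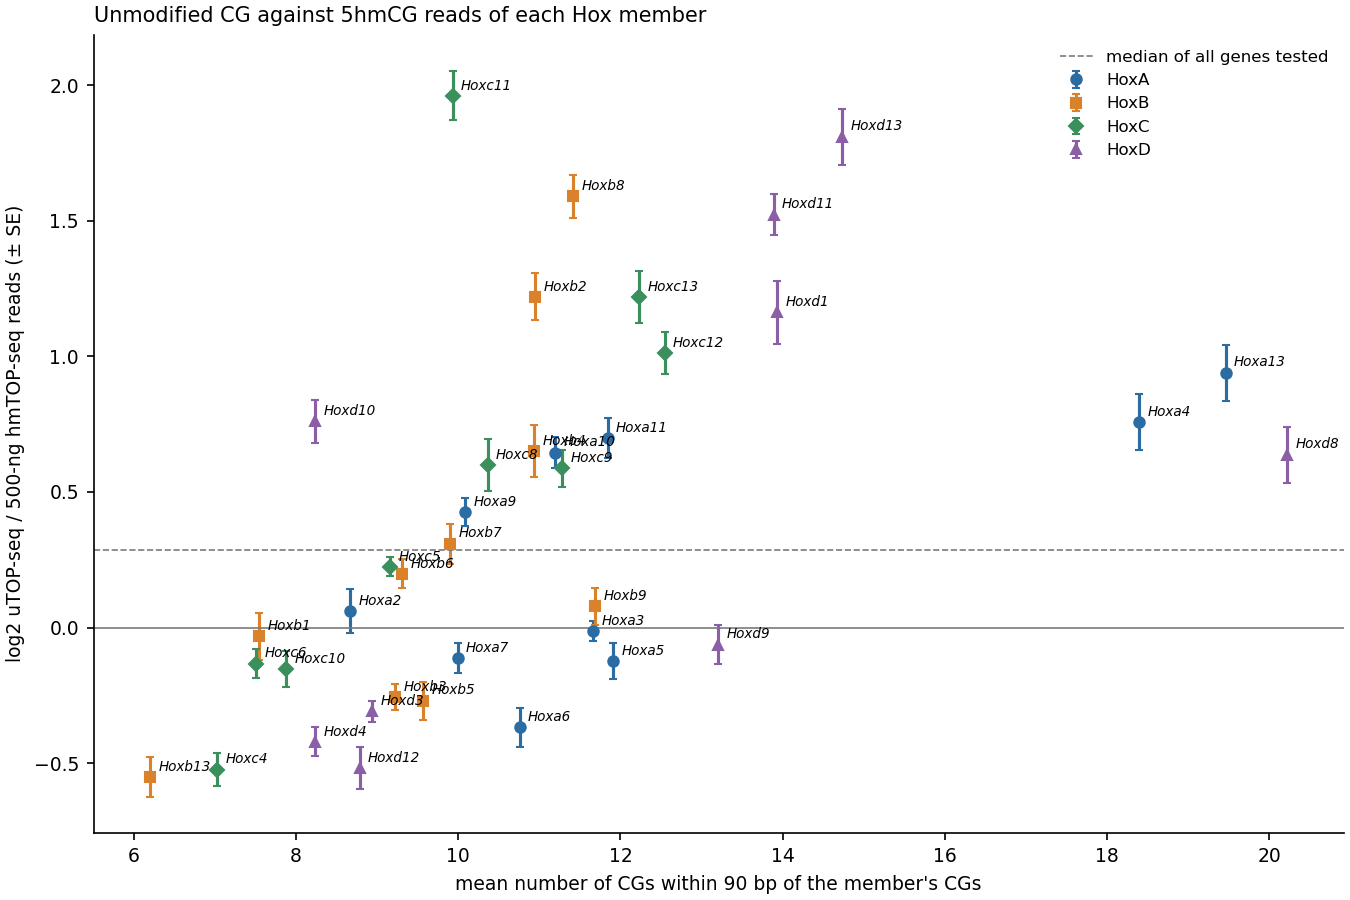
Log2 difference of uTOP-seq against 500-ng hmTOP-seq with its SE for each of the 38 members, against the mean number of CGs within 90 bp of its CGs, with symbols for the 4 clusters and a dashed line at the median of all genes. Values run from -0.55 for Hoxb13 to 1.96 for Hoxc11, and the line stands at 0.29.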

How the data were processed

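Members and lists were chosen with earlier results of these data known. Per the study's methods, the authors used raw reads from 80 nt upwards, alignments to mm10 with MAPQ from 30 upwards, and 1 read for each start and length, and gave each read to a CG. The aligner is not given in the sources used here. The deposited values are counts of reads per CG and library, not normalized, with both strands merged for hmTOP-seq and by strand for uTOP-seq, whose strands were added here. Samples were grouped by assay and DNA input from their labels, and all columns were used.

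Reads were summed over member windows, clusters and flanks. CG density is the number of CGs within 90 bp on both sides, the CG itself included, with dense meaning 10 or more. Clusters were compared with their flanks and with each other within each library by a two-sided exact sign-flip permutation test over libraries, with Benjamini-Hochberg adjustment. Genes that reached 10 reads in each library of a comparison were tested by edgeR's quasi-likelihood test, with TMM for inputs and library totals for uTOP-seq, and a threshold of 0.05 on the p adjusted over all genes. Genes named were the highest and lowest and the first and last member of each cluster, and up to 5 members with the smallest adjusted p in each direction of a gene test. Other members were named after their values were seen. Sites were the CG with the highest 500-ng mean of each cluster, and promoters those with the most and fewest 500-ng reads among entries with at least 10 CGs.

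The alternatives were DESeq2, other scaling, no filter, gene spans alone, a replicate block, other flanks, CGs with fewer than 6 CGs within 90 bp, capped counts, CGs outside repeats, chromosome means, member spans and leaving out each library in turn. HoxB from Hoxb9 to Hoxb1 was added after seeing the data. Software was edgeR 4.0.16 and DESeq2 1.42.0 in R 4.3.3, and pandas 2.3.3, numpy 2.4.6, matplotlib 3.10.9 and scipy 1.17.1 in Python 3.11.15. The gene tests were tested on simulated data.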

Additional observations from a re-analysis of the deposited data

How the results depend on the processing

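Against the flanks, values that changed sign or moved past the threshold in 5hmC were as follows (log2, exact sign-flip permutation test). HoxA had 0.083 with 100-kb flanks, 0.538 with fewer than 6 CGs within 90 bp (adjusted p = 0.0417) and -0.191 outside repeats (0.0417). HoxB had 0.019 with 20-kb flanks, 0.010 with 100-kb flanks, 0.041 with fewer than 6 CGs and -0.358 outside repeats (0.0417). HoxC had -0.092 with 20-kb flanks and 1.084 with fewer than 6 CGs (0.0417), and HoxD 1.258 with fewer than 6 CGs and 0.771 outside repeats (0.0417 each). Between clusters, chromosome means gave 0.407 for HoxA against HoxB, 0.046 for HoxA against HoxC, -0.361 for HoxB against HoxC and -0.103 for HoxB against HoxD. With fewer than 6 CGs the values were 0.016 for HoxA against HoxB, -0.247 for HoxA against HoxC, 0.086 for HoxA against HoxD, -0.263 for HoxB against HoxC, 0.071 for HoxB against HoxD and 0.334 for HoxC against HoxD. None of these pairs passed the threshold, with adjusted p from 0.0938 to 0.75 by the exact test. Member spans gave -0.084 for HoxA against HoxC, CGs outside repeats 0.071 for HoxA against HoxD, and HoxB from Hoxb9 -0.028 against HoxC. Without 1 library, all pairs kept their sign but 5 libraries allow no p under 0.0625, with -0.299 to -0.264 (HoxA, HoxB), -0.241 to -0.207 (HoxA, HoxC), 0.061 to 0.108 (HoxA, HoxD), 0.057 to 0.072 (HoxB, HoxC), 0.329 to 0.396 (HoxB, HoxD) and 0.273 to 0.333 (HoxC, HoxD).

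For 50 ng against 500 ng, 0 genes were called by edgeR, 1 with library totals, 38 with DESeq2, 1 with no filter and 1 to 2411 without 1 library, with 0 to 1 members higher and 0 to 1 lower. For 5 ng these were 1114 with DESeq2, of which 3 members higher, and 0 to 10354 without 1 library, with 0 to 13 members higher and 0 to 10 lower. In uTOP-seq 17 members were lower with TMM and 17 with DESeq2, in place of 10. Of the 19574 genes 7924 and 7707 were lower, in place of 5437. With gene spans alone Hoxb4 had -0.112 at 50 ng and Hoxc10 0.064 at 5 ng, both against their main sign. Replicate differences correlated with r of 0.018, -0.004 and 0.016 between the groups of each gene test, so that the numbers did not pair libraries. With a replicate block 103 genes were called at 50 ng, 20 at 5 ng and, in uTOP-seq, 10564 higher and 5359 lower, with no member called at 50 or 5 ng. The cause of these changes was not tested. The 5-ng libraries had the fewest labelled reads and the widest spread, and depth and input cannot be told apart there.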

Other observations

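The homeobox cofactors, upstream factors and neighbours of the Hox genes were read in the same way, as a list of 17 genes. Their median relative coverage was 1.61 at 500 ng, with 14 above the genome mean, and 1.73 in uTOP-seq, with 16 above it. Pdx1, a ParaHox gene of the pancreas, was highest with 4.51 at 500 ng and 2.86 in uTOP-seq. Evx1, which adjoins HoxA, had 1.81, and Evx2, which adjoins HoxD next to Hoxd13, had 0.961 at 500 ng and 2.35 in uTOP-seq. The ParaHox genes Cdx2 and Gsx1 had 1.37 and 1.58 at 500 ng and 2.91 and 3.09 in uTOP-seq. Pbx3, which encodes a cofactor of Hox proteins, was lowest with 0.493 at 500 ng. By edgeR with library totals, 8 of the 17 had a higher share in uTOP-seq than at 500 ng, 6 a lower one and 3 were not called, where 54.7% of all genes were higher and 27.8% lower. With TMM 7 were higher and 8 lower, where 8173 of 19574 genes were higher and 7924 lower. The log2 differences with library totals were 1.30 for Evx2, 1.11 for Pbx3 and 1.08 for Cdx2, and all 3 were called higher with TMM as well. None of them was called at 50 or 5 ng against 500 ng.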
